A study of Mus musculus with 11 samples.

Results

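The genes described here encode the enzymes that cut the extracellular matrix and the ectodomains of membrane proteins, and the inhibitors that hold these enzymes in check. They are the matrix metalloproteinases (MMP), the ADAM and ADAMTS proteases, the ADAMTS-like proteins (ADAMTSL) and the tissue inhibitors of metalloproteinases (TIMP). Members were all rows of both deposited tables whose symbol began with Mmp, Adam, Adamts, Adamtsl or Timp followed by a digit, which gave 59 of the 18712 genes present in both tables. These were 17 MMP, 16 ADAM, 17 ADAMTS, 5 ADAMTSL and 4 TIMP genes. A further 5 genes were in one table only: Adam21 and Adamts18 in that of the ANXA2 knockout, and Adam3, Adamts20 and Mmp21 in that of the ANXA5 knockout. RNA was sequenced from untreated primary mesenchymal stromal cells of the bone marrow of C57/BL6 mice, the adherent fibroblast-like cells of the marrow that form bone, fat and cartilage. There were 3 libraries of ANXA2 knockout mice, 4 of ANXA5 knockout mice and 4 of wild type (WT) mice. Neither the deleted part of each gene nor the age of the mice is stated. It is also not stated that libraries of a group came from separate animals or cultures, so a p-value here measures only the spread between libraries, part of which may be technical. The ANXA2 knockout libraries are numbered 1, 3 and 4, as in the table.

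MMPs are zinc proteases made as inactive precursors, and together they cut most components of the matrix: collagenases open fibrillar collagen, gelatinases cut denatured and basement membrane collagen, and membrane-type MMPs act at the cell surface. ADAMs are membrane proteins, of which ADAM10 and ADAM17 are the best known sheddases, while ADAMTSs are secreted and include enzymes that cut the proteoglycans aggrecan and versican and enzymes that trim procollagen. ADAMTS-like proteins resemble the non-catalytic part of ADAMTSs and have no protease domain. TIMPs bind the active site of MMPs, and TIMP3 also inhibits ADAM17 and ADAMTS proteases. In bone marrow stroma these genes are known for the turnover of the collagen and proteoglycan matrix that surrounds blood-forming cells. Annexin A2 and annexin A5, the proteins encoded by the targeted genes, bind membrane phospholipids in the presence of calcium, and annexin A2 is a cell surface partner of the plasmin system, which can activate MMP precursors.

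The libraries held 26127374 to 31995332 counted reads in the ANXA2 knockout, 27003312 to 35654634 in the ANXA5 knockout and 23304225 to 29146580 in WT, and the 59 genes took 1.01 to 1.27% of them. Values below are normalised reads, the read count of a gene divided by a size factor of the library; the factors are those of each table for a knockout against WT, and joint ones over all libraries where both knockouts are given. The targeted gene Anxa2 averaged 8542 ± 1691 normalised reads in ANXA2 knockout libraries (SD, n = 3) and 29822 ± 1354 in WT libraries (SD, n = 4), 28.6% of the WT mean (two-sided exact permutation test, p = 0.0571, the smallest possible here). Anxa5 averaged 2359 ± 57.4 in ANXA5 knockout libraries and 25529 ± 1704 in WT libraries (SD, n = 4 each), 9.24% of the WT mean (p = 0.0286 in the same exact test, the smallest possible). The 13 stromal markers looked at were above 0 in every library, with sums on the joint scale of 862969 to 1166800 normalised reads in the ANXA2 knockout, 806468 to 1109500 in the ANXA5 knockout and 694447 to 1054250 in WT. Markers of blood cells were also above 0 in every library: 10 neutrophil markers summed to 302738 to 740986, 458010 to 633910 and 325557 to 581141 in the same order of groups, and 12 macrophage markers to 86569 to 167128, 116208 to 145926 and 83391 to 126321. Xist, the RNA of the inactive X chromosome, split the WT group, with 1957 and 2139 normalised reads in libraries 1 and 2 and 1.25 and 1.03 in libraries 3 and 4. It stood at 218 to 699 in the ANXA2 knockout, and in the ANXA5 knockout at 2.03 in library 2 and 514 to 1636 in the others. No sex is given in the labels.

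Per kilobase of exon, which allows genes to be compared with each other, Timp2 was the most abundant member, with 30808 ± 6255 normalised reads per kb in the ANXA2 knockout (SD, n = 3), 20773 ± 2089 in the ANXA5 knockout and 24589 ± 3330.2 in WT (SD, n = 4 each). It made up 88.6% of the summed TIMP level over all libraries. Mmp2, the gelatinase whose precursor is activated with the help of TIMP2 and of the membrane-type enzyme MMP14, came next with 17626 ± 3170.1, 14124 ± 1771 and 14703 ± 808 per kb in the same order of groups, 46.7% of the summed MMP level. Mmp9 and Mmp8, the gelatinase and the collagenase stored in neutrophil granules, ranked next in WT with 4820.1 ± 846 and 4099 ± 813 per kb, differing by less than either SD. Adamts1 (3091 ± 763 per kb in WT) and Mmp14 (2501 ± 86.7) followed, closer to each other than the SD of Adamts1. The most abundant ADAM was Adam8, a leukocyte ADAM, with 1519 ± 304 per kb in WT, and Adam9 followed with 1267 ± 208. Adamtsl4, a protein that binds fibrillin, held 61.3% of the summed ADAMTSL level, and Adamts1 48.9% of the summed ADAMTS level. In WT, 14 of the 59 genes had a mean of at least 1000 per kb, 16 lay between 100 and 1000, 16 between 10 and 100, 11 between 1 and 10 and 2 below 1.

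**Figure D1:**
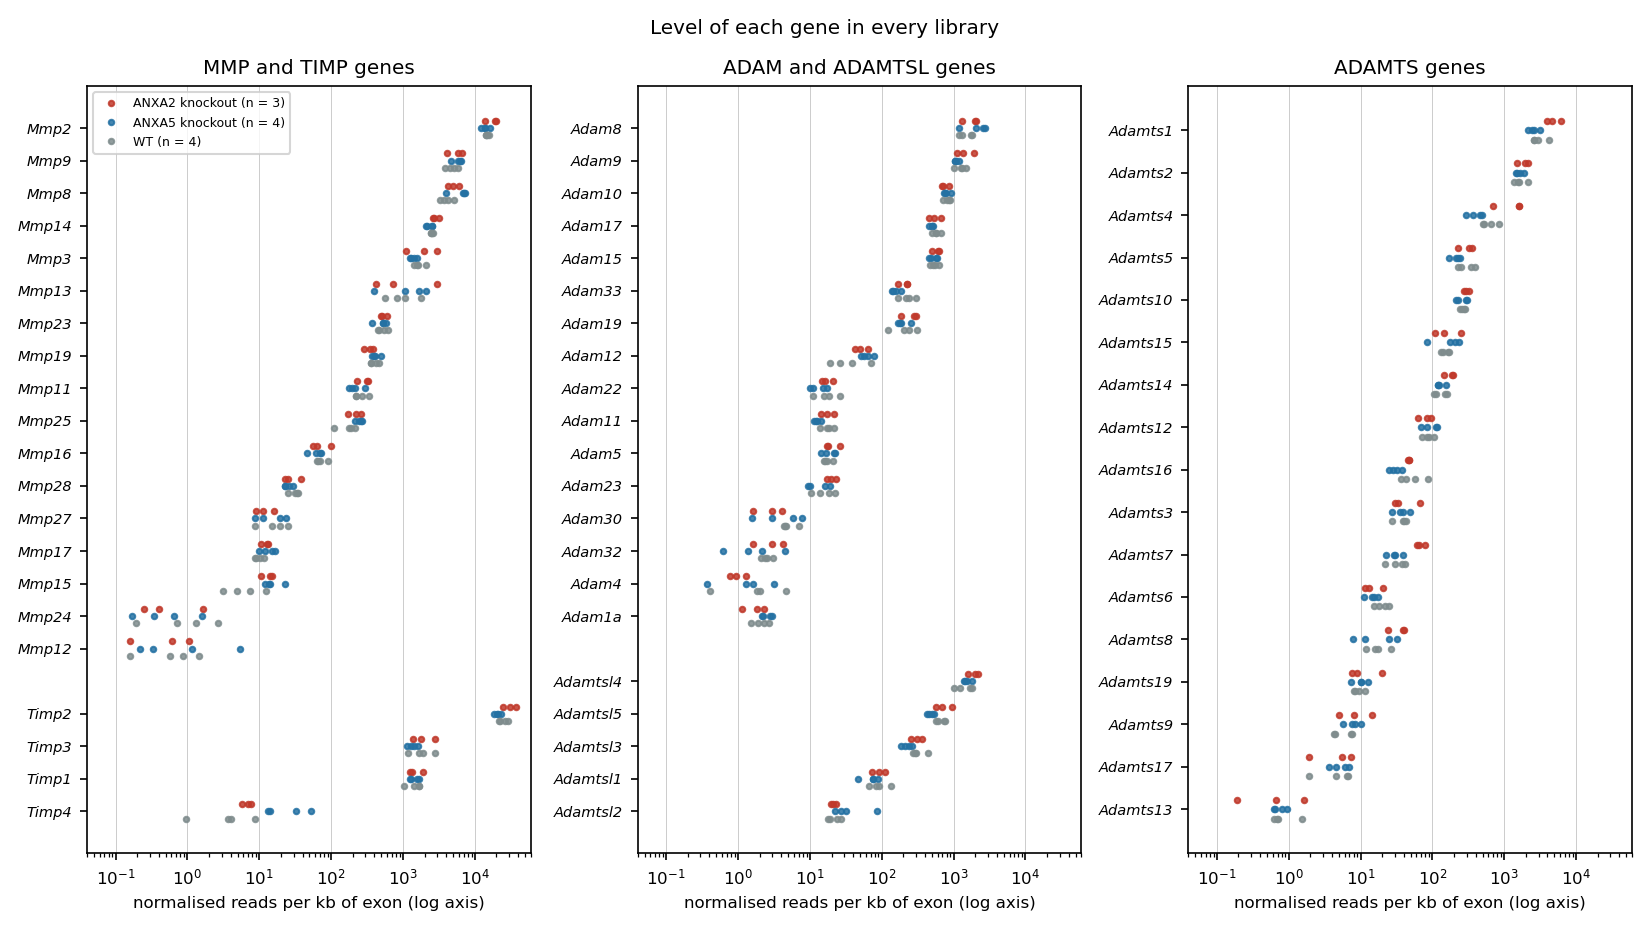
Normalised reads per kb of exon (log axis) of the 59 genes in each library, by subfamily and in falling order of the WT mean; every point is 1 library of the ANXA2 knockout (red), ANXA5 knockout (blue) or WT (grey). Timp2 and Mmp2 lie at the top in all groups, and 13 genes have a WT mean under 10 per kb.

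Promoter sequences of 4 members named in the comparisons below are shown here as examples, from 250 bases before to 50 bases after the gene's start (RefSeq table on GRCm38.p6, which held 40 of the 64 genes). Capitals mark 3 motifs searched on both strands. TGANTCA, with N any base, is a loose form of the binding site of AP-1, the factor classically tied to MMP induction. TATAAA is the TATA box, and GGGCGG is the GC box, printed as its reverse complement where it lies on the other strand. Adamts1 is shown as the most abundant ADAMTS (chr16:85803064-85803363, minus strand), Mmp3, stromelysin 1, as the MMP with an AP-1 motif among the genes below WT in the ANXA5 knockout (chr9:7445572-7445871, plus strand), and Mmp15 and Timp4 as the genes with the greatest fold changes in the ANXA5 knockout (chr8:95352046-95352345, plus strand, and chr6:115252156-115252455, minus strand).
Adamts1: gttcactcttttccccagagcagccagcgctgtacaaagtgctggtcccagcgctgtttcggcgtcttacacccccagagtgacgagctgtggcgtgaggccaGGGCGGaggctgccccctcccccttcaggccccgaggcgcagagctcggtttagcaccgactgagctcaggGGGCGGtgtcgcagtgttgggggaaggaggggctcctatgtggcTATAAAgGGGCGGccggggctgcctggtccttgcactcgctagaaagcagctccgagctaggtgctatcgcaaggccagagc
Mmp3: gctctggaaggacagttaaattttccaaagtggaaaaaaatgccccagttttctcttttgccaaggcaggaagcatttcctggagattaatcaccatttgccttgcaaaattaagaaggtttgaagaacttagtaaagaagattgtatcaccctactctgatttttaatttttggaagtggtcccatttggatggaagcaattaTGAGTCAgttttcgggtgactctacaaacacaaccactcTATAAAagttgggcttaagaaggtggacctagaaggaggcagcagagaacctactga
Mmp15: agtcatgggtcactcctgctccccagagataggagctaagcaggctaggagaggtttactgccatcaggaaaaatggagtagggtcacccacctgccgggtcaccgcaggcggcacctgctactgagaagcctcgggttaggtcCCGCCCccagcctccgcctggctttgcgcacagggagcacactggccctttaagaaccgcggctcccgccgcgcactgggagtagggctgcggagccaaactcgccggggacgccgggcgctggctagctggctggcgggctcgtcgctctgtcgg
Timp4: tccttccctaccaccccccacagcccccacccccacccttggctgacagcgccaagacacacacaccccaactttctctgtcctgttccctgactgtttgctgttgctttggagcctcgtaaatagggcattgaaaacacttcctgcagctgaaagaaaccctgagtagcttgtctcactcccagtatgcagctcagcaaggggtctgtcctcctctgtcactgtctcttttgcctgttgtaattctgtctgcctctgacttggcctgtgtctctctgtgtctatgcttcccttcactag
The Adamts1 window held 3 GC boxes and 1 TATA box, that of Mmp3 held 1 AP-1 motif and 1 TATA box, that of Mmp15 held 1 GC box, and that of Timp4 held none of the 3 motifs. Over the 40 genes with a window, the loose AP-1 motif was in 10% (Adam19, Mmp12, Mmp13 and Mmp3), against 7.81% of all 32851 promoters. The TATA box was in 17.5% of them, against 13.6% of all promoters, and the GC box in 67.5%, against 35.7% of all. These matches are letters in a window and were not tested against the values.

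In the ANXA2 knockout, the members farthest from WT by p were mostly secreted ADAMTS proteases, and none passed the adjusted threshold of the main test. Adamts7, Adamts4, Adamts8 and Adamts1 and the membrane-type Mmp15 were above WT at an unadjusted p under 0.05, and no member was below it. Each comparison was tested with limma-trend on log2 (value + 1), two-sided, with Benjamini-Hochberg adjustment over all genes and 0.05 as the threshold, leaving out genes that did not reach 10 normalised reads in enough libraries to fill the smaller group. Of 55 members tested, 0 were called by limma, against 0.112% of all 16123 genes tested. edgeR and limma-voom also called 0 members, with 0.130% and 0.112% of all genes, and DESeq2 called 1, with 0.645% of all genes. The 5 at an unadjusted p under 0.05 are 9.09% of the members, near the 8.69% of all genes. All 5 lay above WT, and 4.65% of all genes were both above WT and at that p. The median log2 fold change of the members was 0.13, with 35 of 55 above 0, and that of all genes 0.023, with 54.1% above 0. By subfamily the medians were 0.15 for 15 MMPs, 0.05 for 14 ADAMs, 0.15 for 17 ADAMTSs, -0.001 for 5 ADAMTSLs and 0.19 for 4 TIMPs.

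Adamts7, which cuts the cartilage oligomeric matrix protein, had 466, 383 and 355 normalised reads in ANXA2 knockout libraries 1, 3 and 4, against 129, 179, 218 and 243 in WT libraries 1 to 4. All 3 knockout libraries lay above all WT libraries; 2 of the 55 members, 3.64%, and 9.19% of all genes had groups that did not overlap. The log2 fold change was 1.09, SE 0.22, with an adjusted p of 0.255 in limma. The authors' deposited table gave a log2 fold change of 1.06 and an adjusted p of 0.00261, among 0.593% of its genes under 0.05, and Adamts7 was the one member called there. With log2 Xist as a covariate limma gave an adjusted p of 0.0264, where 1.76% of all genes were called. Exons of Adamts7 overlap those of Tbc1d2b over 1.94% of their length, and strand-specific counting is not stated; Tbc1d2b had 4497, 4929 and 4235 normalised reads in the knockout, against 2547, 3016, 4526 and 4339 in WT, overlapping groups.

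Adamts4 and Adamts1 cut aggrecan and versican and are grouped with Adamts5, Adamts8, Adamts9 and Adamts15 as hyalectanases. Adamts4 had 7088, 3164 and 7168 normalised reads in ANXA2 knockout libraries 1, 3 and 4, against 2247, 2341, 3766 and 2895 in WT libraries 1 to 4. Libraries 1 and 4 of the knockout stood above all WT libraries and library 3 among them (log2 fold change 0.98, SE 0.30, limma adjusted p = 0.518). For Adamts1 the values were 30277, 19546 and 22614 in the knockout, against 14717, 12677, 20759.5 and 13014 in WT (log2 fold change 0.66, SE 0.22, limma adjusted p = 0.523). Its groups overlapped through WT library 3, which lay above knockout library 3. Adamts8 was low, with 175, 169.7 and 105 in the knockout, against 76.3, 50.6, 114 and 69.1 in WT, where library 3 lay above the lowest knockout library (log2 fold change 0.97, SE 0.30, limma adjusted p = 0.518). The 6 hyalectanases tested had 0.61 as their median log2 fold change, 5 being above 0 and 0 called. Among them Adamts5 was at -0.00082 and Adamts15 at 0.073, with Adamts9 at 0.55. Adamts9 and Adamts15 were chosen after their values were seen. The median of the 8 ADAMTSs outside the hyalectanases and procollagen proteinases was -0.082. Adamts2, the main procollagen N-proteinase, had 16751, 18356 and 13236 in the knockout, against 13456, 11763, 18357 and 13980.4 in WT, overlapping groups.

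Mmp15, a membrane-type MMP of low abundance here, had 70.1, 52.4 and 75.5 normalised reads in the ANXA2 knockout, against 15.9, 24.9, 37.3 and 63.3 in WT (log2 fold change 1.04, SE 0.42, limma adjusted p = 0.565). WT library 4 lay within the range of the knockout and WT libraries 1 to 3 below it. Timp4, the TIMP with the lowest level per kb, had 31.3, 42.7 and 38.8 in the knockout, against 5.3, 19.9, 22.1 and 48 in WT, also with WT library 4 highest (log2 fold change 0.96, SE 0.59, limma adjusted p = 0.621). Timp2 had 133985, 113085 and 88592 in the knockout, against 94738, 78296, 103791 and 80721 in WT, with overlapping groups; its log2 fold change of 0.31 had a 95% interval of -0.20 to 0.83. Timp1 ranged from 1022 to 1575 in the knockout and 856 to 1401 in WT, and Timp3 from 10476 to 21501 in the knockout and 9031 to 21197 in WT, overlapping in both. Mmp2 and Mmp14 likewise overlapped between groups, with 60119.6, 62096 and 43944 for Mmp2 in the knockout, against 50017, 45909, 44379 and 44711 in WT. Of the markers of other cells, 10 of 10 neutrophil, 7 of 12 macrophage and 7 of 8 endothelial ones were above 0 in the ANXA2 knockout, with 0, 1 and 0 at an unadjusted p under 0.05. Of 5 osteoclast markers 3 were below 0, 2 of them at that p, with a median of -0.74. Their sums did not go the same way, at 9699 to 12513 in the knockout and 7811 to 10892.5 in WT, overlapping groups. Of 8 B and plasma cell markers 2 were above and 1 below WT at that p, and 5 of 6 erythroid and 4 of 6 T and NK cell markers were below 0, none at that p. None of these was called, and the part of these cells in the members' values was not tested. Adam30 was the one member with all knockout libraries below WT, at 9.7, 5.33 and 13.3 normalised reads in the knockout, against 23.3, 14.9, 15.1 and 14.4 in WT, values near the filter of 10 (chosen after its values were seen).

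**Figure D2:**
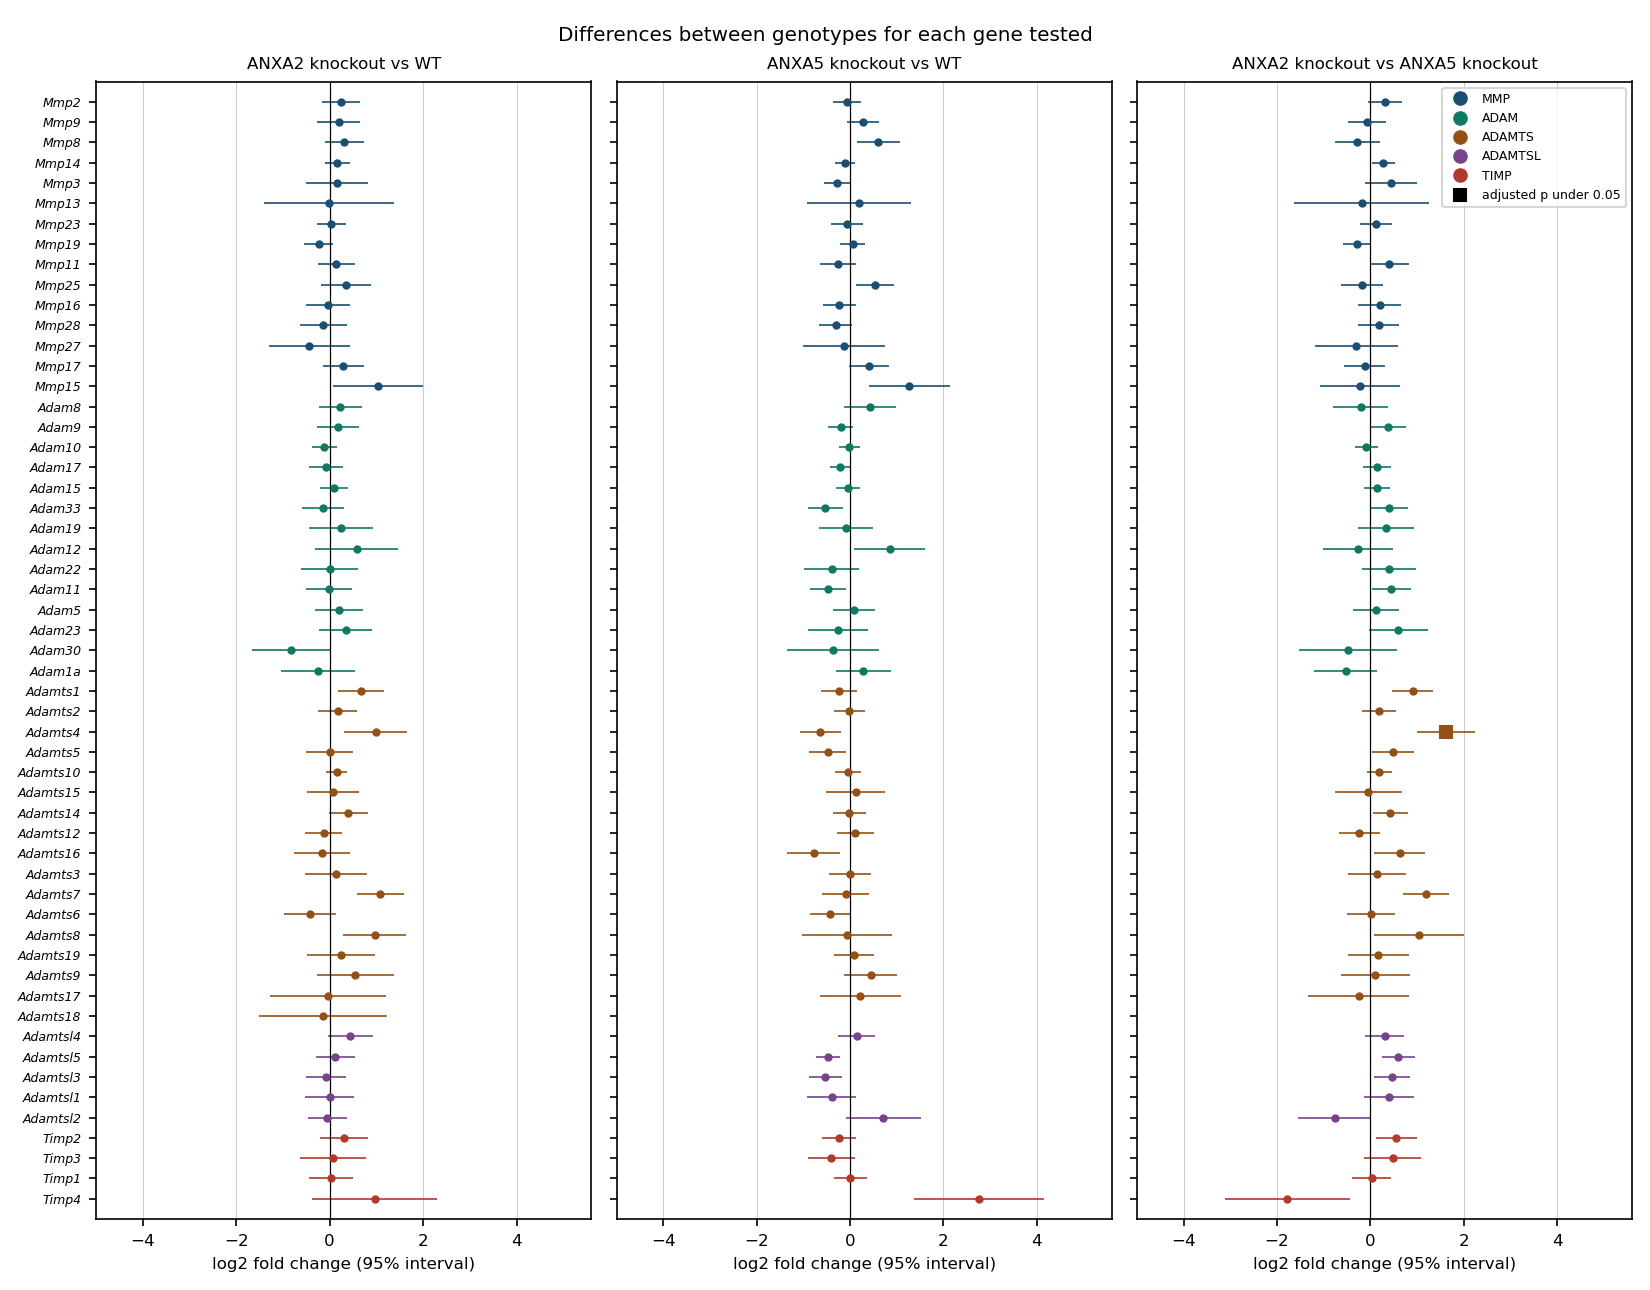
Log2 fold change with its 95% interval from limma for each gene tested, in the ANXA2 knockout against WT (left), the ANXA5 knockout against WT (middle) and the ANXA2 knockout against the ANXA5 knockout (right), coloured by subfamily and ordered by WT level within it. Adamts4 in the right panel (log2 fold change 1.62) carries the one square, an adjusted p under 0.05.

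In the ANXA5 knockout, more members were set apart from WT at the unadjusted level and in both directions, again with none past the adjusted threshold of the main test. Timp4, Mmp15, Adam12, Mmp8 and Mmp25 were above WT, and Adamtsl5, Adamts16, Adamts4, Adam33, Adamtsl3, Adamts5, Adam11, Adamts6 and Mmp3 below it. Of 54 members tested, 0 were called by limma, edgeR or limma-voom, each of which called 0.0308% of all 16224 genes tested, and 2 by DESeq2, which called 1.89% of all genes. At an unadjusted p under 0.05 stood 14 members, 25.9%, against 11.9% of all genes. Those above WT were 5, or 9.26% of the members (6.48% of all genes), and those below it 9, or 16.7% (5.45% of all genes). The median log2 fold change of the members was -0.068, with 21 of 54 above 0, and that of all genes 0.011, with 52.0% above 0. By subfamily the medians were -0.064 for 15 MMPs, -0.14 for 14 ADAMs, -0.03 for 16 ADAMTSs, -0.40 for 5 ADAMTSLs and -0.12 for 4 TIMPs.

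Timp4, an inhibitor known mainly from heart and vessels, had 194, 79.9, 84.9 and 319 normalised reads in ANXA5 knockout libraries 1 to 4, against 5.79, 21.8, 24.4 and 52.6 in WT libraries 1 to 4. All knockout libraries lay above all WT libraries, with knockout libraries 1 and 4 highest; 4 of the 54 members, 7.41%, and 6.37% of all genes had groups that did not overlap. The log2 fold change was 2.75, SE 0.62, the largest of any member in this comparison, with an adjusted p of 0.229 in limma. The authors' deposited table gave 2.70 with an adjusted p of 0.0205, where 1.76% of its genes were under 0.05. Timp4 lies on the strand opposite to Syn2, whose exons overlap 1.53% of its own; Syn2 had 17.3, 8.3, 3.77 and 9.01 in the knockout, against 4.63, 18.1, 6.43 and 6.31 in WT. Mmp15 had 75.9, 65.3, 78.3 and 128 in the knockout, against 17.4, 27.2, 41.2 and 69.4 in WT, where library 4 reached into the knockout range (log2 fold change 1.27, SE 0.39, limma adjusted p = 0.299).

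Endothelial markers were also above WT in the ANXA5 knockout. The 8 markers summed to 5183, 5552, 6922 and 7901 in ANXA5 knockout libraries 1 to 4, against 4163, 4008, 5300.2 and 5105 in WT libraries 1 to 4. Of the 8, 7 were above WT and 1, Tek, below it at an unadjusted p under 0.05, none was called, and none was at 0 in any library. The sums overlapped, since WT library 3 lay above knockout library 1. Knockout library 4 held the highest sum, the most Timp4 and the most Mmp15, while knockout library 1 was second in Timp4 and had the lowest sum of its group. The part of the endothelial cells in the Timp4 and Mmp15 values was not tested, and in bulk RNA more cells of a type and more RNA per cell cannot be told apart. Adam12, meltrin alpha, known from muscle and fat cell formation, had 837, 692, 609 and 566 in the knockout, against 204, 422, 287 and 771 in WT, with WT library 4 within the knockout range (log2 fold change 0.84, SE 0.34, limma adjusted p = 0.379).

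Mmp8, the neutrophil collagenase, had 17564, 17943, 10007 and 17118 normalised reads in ANXA5 knockout libraries 1 to 4, against 8035, 9254, 10678 and 12753 in WT libraries 1 to 4. Knockout libraries 1, 2 and 4 lay above all WT libraries and library 3 among them (log2 fold change 0.60, SE 0.21, limma adjusted p = 0.33). Mmp25, a membrane-type MMP of leukocytes, had 1309, 1396, 1159.5 and 1458 in the knockout, against 601, 951, 1047 and 1179 in WT (log2 fold change 0.53, SE 0.19, limma adjusted p = 0.34). Mmp9 had 21272, 22984, 16776 and 22771 in the knockout, against 13694, 16497, 18826 and 20862 in WT, and Adam8 had 9697, 12059.6, 5619 and 12912, against 5669.6, 6302, 8707 and 8190.0. In both genes library 3 was the lowest of the knockout and the other knockout libraries lay above all WT libraries. The 10 neutrophil markers summed to 526124, 648538, 469010 and 584367 in the knockout libraries, against 332706, 402769, 364902 and 594619 in WT, with 10 of 10 above 0 on the log2 scale, 5 of them at an unadjusted p under 0.05, 0 called and none at 0 in any library. Knockout library 3, lowest in Mmp8, Mmp9, Mmp25 and Adam8, also had the lowest neutrophil sum of its group. The 12 macrophage markers summed to 118999 to 149294 in the knockout and 85222 to 129251 in WT, 12 of 12 above 0 and 9 at an unadjusted p under 0.05. Above 0 were also 7 of 8 B and plasma cell, 6 of 6 erythroid and 5 of 6 T and NK cell markers, with 2, 1 and 1 at that p, and 2 of 5 osteoclast markers, none at that p. The part of these blood cells in the values of Mmp8, Mmp9, Mmp25 and Adam8 was not tested.

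**Figure D3:**
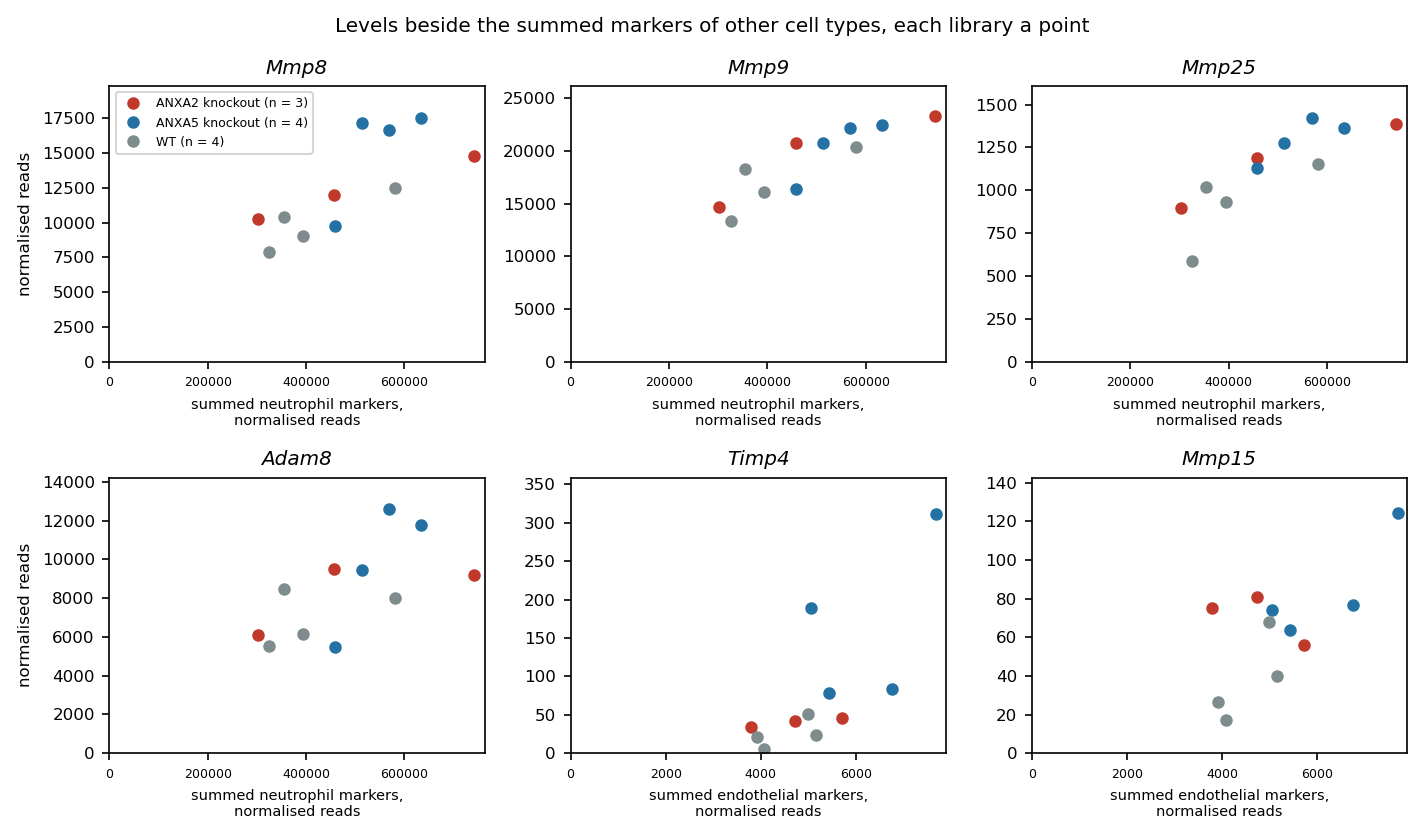
Normalised reads of Mmp8, Mmp9, Mmp25 and Adam8 against the summed neutrophil markers, and of Timp4 and Mmp15 against the summed endothelial markers, on the joint scale; each point is 1 library of the ANXA2 knockout (red), ANXA5 knockout (blue) or WT (grey). ANXA2 knockout library 4 has the highest neutrophil sum (740986) and the highest Mmp9. Mmp8 is highest in ANXA5 knockout library 2, and Mmp25 and Adam8 are highest in ANXA5 knockout library 4. The highest endothelial sum (7694), Timp4 and Mmp15 are also in ANXA5 knockout library 4.

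Below WT in the ANXA5 knockout at an unadjusted p under 0.05 were 2 of the 5 ADAMTS-like genes, Adamtsl5 and Adamtsl3, and 4 ADAMTSs. Adamtsl5, a fibrillin-binding protein, had 2557, 2204, 2439.8 and 2074 normalised reads in the knockout, against 3660.4, 2913, 3596 and 2738 in WT, and every knockout library lay below every WT library. Its log2 fold change was -0.47, SE 0.12 with a limma adjusted p of 0.23; the authors' deposited table gave -0.48 and an adjusted p of 0.0295. Adamtsl3 had 2068, 1487, 1912 and 1654 in the knockout, against 2346, 2169, 3537 and 2336 in WT, again without overlap (log2 fold change -0.53, SE 0.16, limma adjusted p = 0.303). Adamtsl4 had 7769.7, 6159, 6048 and 6656, against 4357, 5283, 7815 and 7227, overlapping groups. Adamtsl2, chosen after its values were seen, had 699.6, 186, 259 and 221, against 224, 198, 148 and 157, with knockout library 1 far above the others and libraries 2 and 4 within the WT range. Of the 5 ADAMTSL genes, 2 were above and 3 below 0.

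Adamts4 had 1829, 2395, 2262 and 1440.4 normalised reads in the ANXA5 knockout, against 2458, 2562, 4159 and 3174 in WT, with all knockout libraries below all WT libraries (log2 fold change -0.64, SE 0.20, limma adjusted p = 0.305). Adamts5, the main aggrecan-cutting enzyme of mouse cartilage, had 2721, 2487, 2370.0 and 1884 in the knockout, against 3791, 2539.7, 4298 and 2747 in WT, overlapping because knockout library 1 lay above WT library 2 (log2 fold change -0.48, SE 0.18, limma adjusted p = 0.355). Adamts1 had 13429, 17202, 13883 and 11819.5 in the knockout, against 16096, 13876, 22928 and 14271 in WT, overlapping groups. Among rarer ADAMTSs, Adamts16 had 196, 228, 265 and 174 in the knockout, against 399.8, 252, 603 and 299 in WT, where library 2 lay below the highest knockout library (log2 fold change -0.78, SE 0.25, limma adjusted p = 0.318). For Adamts6, a relative of Adamts10, the log2 fold change was -0.43, SE 0.19 at an unadjusted limma p of 0.0451. The 6 hyalectanases tested had a median of -0.15, with 2 of 6 above 0 and 0 called.

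Adam33 had 881, 784, 1026 and 763 normalised reads in the ANXA5 knockout, against 1645, 1182, 1319.6 and 928 in WT (log2 fold change -0.53, SE 0.17, limma adjusted p = 0.306). Adam11, a catalytically inactive ADAM, had a log2 fold change of -0.47, SE 0.17, with a limma adjusted p of 0.346, at 67 to 83.3 normalised reads in the knockout and 80.0 to 124 in WT. Mmp3, stromelysin 1, had 2877, 2359, 2316 and 2667 in the knockout, against 3884, 3021, 2949 and 2663 in WT (log2 fold change -0.28, SE 0.12, limma adjusted p = 0.41). In all 3 genes the groups overlapped. The sheddase gene Adam17 had 3622, 3348, 3674 and 3804 in the knockout, against 4889, 4119, 4179.9 and 3640.0 in WT, and Adam10 3705, 3971, 3830.4 and 4593, against 4023, 4284, 4442 and 3554, all within overlapping ranges. The abundant inhibitor Timp2 had 93046, 82298, 72578 and 83834 in the knockout, against 103611, 85699.8, 114632 and 88514 in WT, overlapping groups with a log2 fold change of -0.24 and a 95% interval of -0.60 to 0.12. Timp1 ranged from 1160.3 to 1516 in the knockout and 945 to 1533 in WT, and Timp3 from 9611 to 13687 in the knockout and 9903 to 23182 in WT, overlapping in both. Mmp2 and Mmp14 overlapped too, with 15272, 13141, 15648 and 12742 for Mmp14 in the knockout, against 15943, 14829.7, 14929.5 and 15350.1 in WT.

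Between the knockouts 1 member passed the adjusted threshold: Adamts4 was higher in the ANXA2 knockout than in the ANXA5 knockout, and this was the only call among the members in the 3 limma comparisons. Most ADAMTS genes, 13 of 16, were above 0, and the inhibitor Timp4 was the only member below 0 at an unadjusted p under 0.05. Because each table had been scaled on its own, the recovered reads of all 11 libraries were scaled together for this comparison and fitted in one limma model. Of 54 members tested, 1 was called, 1.85%, against 0.298% of all 16791 genes tested. At an unadjusted p under 0.05 stood 15 members, 27.8%, against 13.6% of all genes: 14 were higher in the ANXA2 knockout, 25.9% (7.39% of all genes), and 1 lower (6.16% of all genes). The median log2 fold change of the members was 0.17, with 36 of 54 above 0, and that of all genes 0.0060, with 51.0% above 0.

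Adamts4 had 7604, 3395 and 7689.6 normalised reads on the joint scale in ANXA2 knockout libraries 1, 3 and 4, against 1784, 2341, 2209 and 1403 in ANXA5 knockout libraries 1 to 4; the WT libraries had 2405, 2507, 4044 and 3102. Every ANXA2 knockout library lay above every ANXA5 knockout library; 8 of 54 members, 14.8%, and 12.6% of all genes had knockouts that did not overlap. The WT libraries lay above all ANXA5 knockout libraries, and WT library 3 above ANXA2 knockout library 3. The log2 fold change was 1.62, SE 0.29, with an adjusted p of 0.0407 in limma and 0.0352 in edgeR, which called 0.262% of all genes. The call was lost without ANXA2 knockout library 1 or 4 or any 1 ANXA5 knockout library, where the log2 fold change was 1.42 to 1.72 and the adjusted p 0.0658 to 0.197 in limma; without ANXA2 knockout library 3 they were 2.01 and 0.00361.

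Adamts7 had 499, 411 and 381 in the ANXA2 knockout, against 248, 189.6, 142 and 186 in the ANXA5 knockout, without overlap (log2 fold change 1.18, SE 0.23, limma adjusted p = 0.0659). Adamts1 had 32478, 20970.3 and 24259, against 13101, 16814, 13557 and 11509.8, also without overlap (log2 fold change 0.90, SE 0.20, limma adjusted p = 0.12). In Adamts7 all ANXA5 knockout libraries lay within the WT range, and in Adamts1 all but library 2 lay below it, the ranges being 138 to 260.1 for Adamts7 and 13577 to 22290.2 for Adamts1. Adamts16 had 313, 326 and 324 in the ANXA2 knockout, against 191, 223, 259 and 169.8 in the ANXA5 knockout (log2 fold change 0.62, SE 0.25, limma adjusted p = 0.318). Adamts8, Adamts5 and Adamts14, the last a procollagen N-proteinase, had log2 fold changes of 1.04 (SE 0.44), 0.48 (SE 0.21) and 0.42 (SE 0.17), with limma adjusted p from 0.333 to 0.349. Of the 16 ADAMTSs tested, 13 were above 0, 7 at an unadjusted p under 0.05 and 1 called, with a median of 0.19. The 6 hyalectanases had a median of 0.69, with 5 of 6 above 0.

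**Figure D4:**
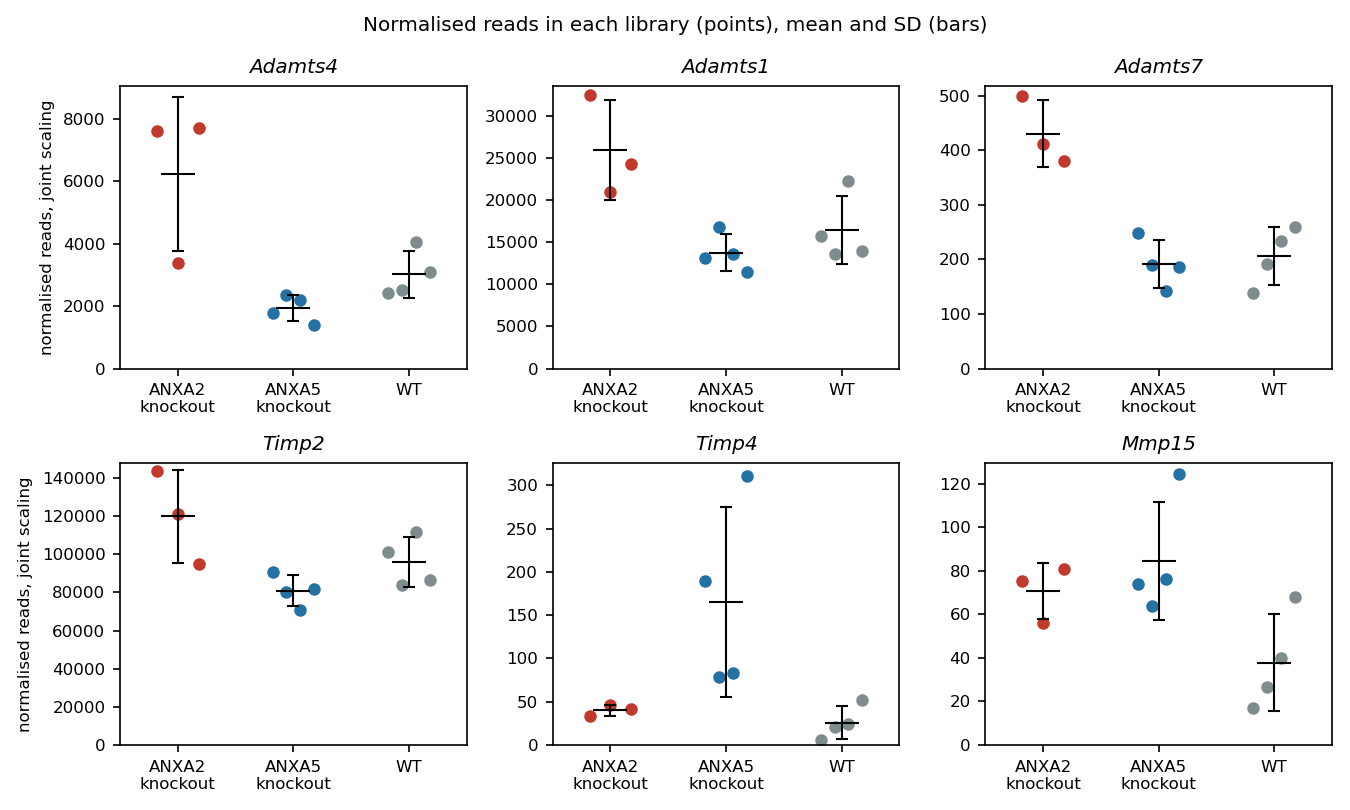
Normalised reads on the joint scale of Adamts4, Adamts1, Adamts7, Timp2, Timp4 and Mmp15; points are libraries of the ANXA2 knockout (n = 3), ANXA5 knockout (n = 4) and WT (n = 4), and bars are the mean and SD. The ANXA2 and ANXA5 knockout libraries do not overlap in Adamts4, Adamts1, Adamts7, Timp2 and Timp4, and they do in Mmp15.

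Timp2 had 143724, 121327 and 95035 normalised reads in the ANXA2 knockout, against 90771, 80442, 70876 and 81637 in the ANXA5 knockout, without overlap, and 101385, 83852, 111443 and 86508 in WT (log2 fold change between the knockouts 0.55, SE 0.20, limma adjusted p = 0.287). Timp4 had 33.5, 45.8 and 41.6 normalised reads in the ANXA2 knockout, against 189, 78.1, 82.9 and 311 in the ANXA5 knockout (log2 fold change -1.78, SE 0.62, limma adjusted p = 0.267). Here the ANXA5 knockout was the higher one, the groups did not overlap, and the ANXA2 knockout lay inside the WT range of 5.67 to 51.4. Mmp14, the cell surface activator of MMP2, had 16218, 18616 and 15462 in the ANXA2 knockout, against 14899, 12845, 15281 and 12408 in the ANXA5 knockout, again without overlap (log2 fold change 0.28, SE 0.11, limma adjusted p = 0.333). It was the only MMP of 15 tested at an unadjusted p under 0.05. Adamtsl5 had 4441, 3287 and 2697, against 2495, 2154, 2383 and 2019.8, without overlap (log2 fold change 0.59, SE 0.16, limma adjusted p = 0.189). Adamtsl3 and 3 ADAMs, Adam9, Adam11 and Adam33, had log2 fold changes of 0.45 (SE 0.18), 0.38 (SE 0.17), 0.45 (SE 0.19) and 0.40 (SE 0.18), with limma adjusted p from 0.31 to 0.369 and overlapping groups. DESeq2 on the recovered reads called 2.46% of all genes and 6 members: Adamts7, Adamts4, Adamts1, Timp2, Adamtsl5 and, lower in the ANXA2 knockout, Timp4.

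Summed per subfamily, the ADAMTS genes came to 10872, 8179.8 and 8812 normalised reads per kb in ANXA2 knockout libraries 1, 3 and 4, 5919, 6023, 5599 and 5059 in ANXA5 knockout libraries 1 to 4 and 6107, 5423, 8492 and 5960.4 in WT libraries 1 to 4. The knockouts did not overlap, and WT library 3 lay above the lowest ANXA2 knockout library. Adamts1 held 48.9% of the summed ADAMTS level, with means of 4885 per kb in the ANXA2 knockout and 2592 in the ANXA5 knockout. For Adamts4 these means were 1295 and 402, and for Adamts2 they were 1852 and 1623. The ADAMTS sum thus weighs a few genes most and does not describe the subfamily as a whole. TIMP sums, mostly Timp2, were 41630, 34146 and 27102 in the ANXA2 knockout, against 26281, 23367, 20924 and 23916 in the ANXA5 knockout, again without overlap, and ranged from 25071 to 31331 in WT. MMP sums were 35503, 40129.5 and 32297 in the ANXA2 knockout and 29838 to 37092 in the ANXA5 knockout, and WT libraries lay close together at 29640.2 to 31372. Every ANXA2 knockout MMP sum lay above every WT one, while the ANXA5 knockout overlapped both other groups. ADAM and ADAMTSL sums overlapped between all groups, at 4519 to 6216 and 2176 to 3356 over all libraries. These sums are descriptions and were given no test.

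**Figure D5:**
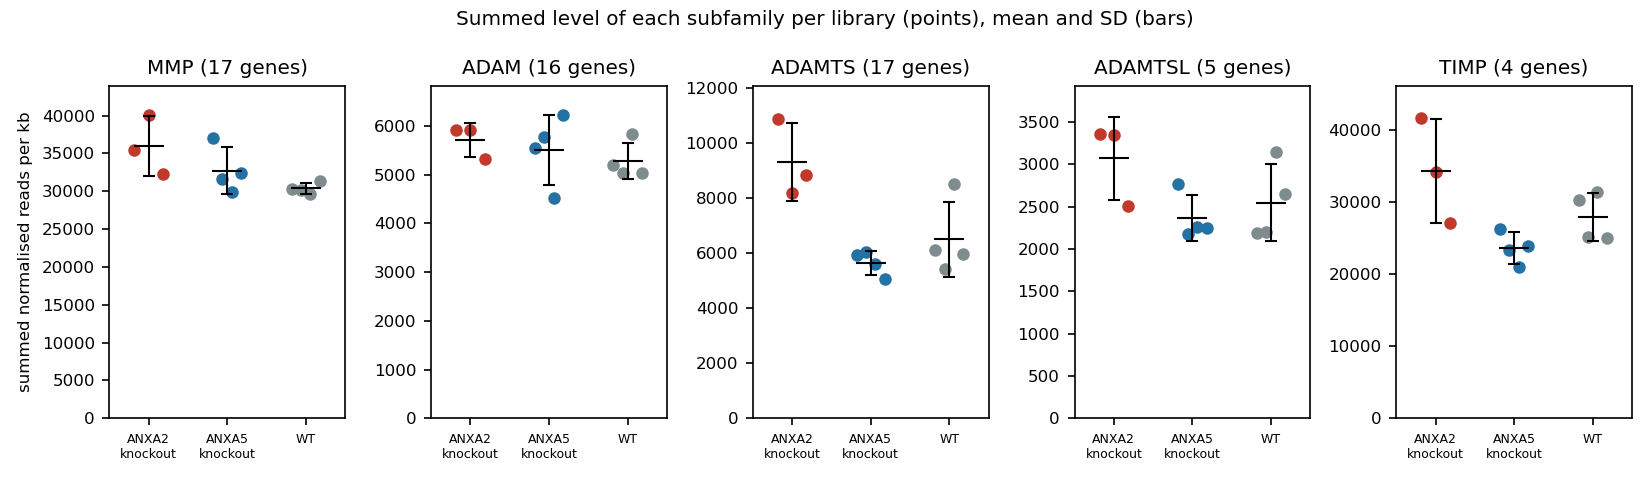
Summed normalised reads per kb of the genes of each subfamily on the joint scale; points are libraries of the ANXA2 knockout (n = 3), ANXA5 knockout (n = 4) and WT (n = 4), and bars are the mean and SD. The ADAMTS and TIMP sums of the knockouts do not overlap, with 8179.8 as the lowest ADAMTS sum of the ANXA2 knockout and 6023 as the highest of the ANXA5 knockout. Adamts1 holds 48.9% of the ADAMTS level and Timp2 88.6% of the TIMP level.

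Of the 59 genes, 9 lie on chromosome 9, the chromosome of Anxa2, by GENCODE vM21 on GRCm38. Adam10 is the nearest, with its start 1.23 Mb from that of Anxa2, and had 3911, 3182 and 3225 normalised reads in the ANXA2 knockout, against 3679, 3914, 4022 and 3241 in WT, overlapping groups with a limma adjusted p of 0.78. Adamts7 lies 20.7 Mb away, Adamts8 and Adamts15 lie 38.5 Mb away on the other side, and the cluster of Mmp3, Mmp8, Mmp12, Mmp13 and Mmp27 lies about 62 Mb away on that side. In the ANXA2 knockout no gene of that cluster was called, with limma adjusted p from 0.617 to 0.998, and Mmp12 was below the filter. The genes of this paragraph outside the rule for named genes were chosen for their position. On chromosome 3, that of Anxa5, Adam15, Adamtsl4 and Adam30 lie 52.9, 59.2 and 61.7 Mb from Anxa5 and were not called in the ANXA5 knockout.

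Other genes of these pathways were followed in lists made by function. In the ANXA2 knockout none of them was called against WT: 0 of 20 matrix substrates, 0 of 23 shed membrane proteins, 0 of 8 plasmin system genes, 0 of 13 inducers of matrix protease genes, 0 of 10 other protease inhibitors, 0 of 9 partners of ADAM10 and ADAM17, 0 of 7 other metzincins and procollagen-processing genes and 0 of 4 proprotein convertases. Of all genes tested, 0.112% were called. At an unadjusted p under 0.05 stood 13 of these 94 genes, 13.8%, against 8.69% of all genes, with 11 above and 2 below WT. The genes named here were chosen after their values were seen. Versican (Vcan), a substrate of the hyalectanases, had the lowest adjusted p, with 3343, 3632 and 3387 normalised reads in the knockout, against 4944, 5551, 5097 and 4856 in WT, without overlap (log2 fold change -0.56, SE 0.10, adjusted p = 0.118 in limma). Aggrecan (Acan), another such substrate, had 281, 431 and 302 in the knockout, against 130.3, 196, 134 and 242 in WT, also without overlap (log2 fold change 0.97, SE 0.25, adjusted p = 0.471 in limma). Of these 2 proteoglycan genes, Vcan lay below and Acan above WT. Of the 20 matrix substrates, 16 were above 0 and 5 at an unadjusted p under 0.05, 3 above and 2 below WT. Elastin (Eln) was among those above, with 9464, 13699 and 17841 in the knockout, against 8497, 6656, 8868 and 6553 in WT, without overlap (log2 fold change 0.80, SE 0.22, adjusted p = 0.471 in limma). Of all genes, 9.19% had groups that did not overlap in this comparison.

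In the ANXA5 knockout 0 of 93 genes of these lists were called, against 0.0308% of all genes, and 25 were at an unadjusted p under 0.05, 26.9% against 11.9% of all genes, with 11 above and 14 below WT. The genes named here were chosen after their values were seen. Both plasminogen activators were below WT: Plat had 3926, 3934, 4485 and 4290.0 normalised reads in the knockout, against 8032, 6124, 5826 and 4934 in WT, without overlap (log2 fold change -0.56, SE 0.14, adjusted p = 0.23 in limma). Plau had 228, 361, 202 and 119.6, against 609, 419, 427 and 366, also without overlap (log2 fold change -1.08, SE 0.29, adjusted p = 0.266 in limma). Reck, a membrane-anchored MMP inhibitor, had 2538, 2226, 2456 and 2432, against 3521, 2981, 2965 and 2586 (log2 fold change -0.31, SE 0.10, adjusted p = 0.314 in limma). Pcolce2, an enhancer of procollagen C-proteinases, had 8822, 8179, 8347 and 8958, against 13191, 11904, 11188 and 10507, without overlap (log2 fold change -0.44, SE 0.093, adjusted p = 0.217 in limma). Of 8 plasmin system genes, 1 was above and 2 were below WT at an unadjusted p under 0.05, and of 9 ADAM10 and ADAM17 partners, 1 and 2. Of 23 shed membrane proteins, 6 were above and 2 below WT at that p. N-cadherin (Cdh2), a substrate of ADAM10, had 144, 205, 147 and 139 in the knockout, against 56.8, 82.6, 100.3 and 72.6 in WT, with every knockout library above every WT library (log2 fold change 1.03, SE 0.20, adjusted p = 0.217 in limma). Dlk1, a membrane protein shed by ADAM17, had 320.1, 367, 262 and 432, against 129.8, 216, 157 and 252, also without overlap (log2 fold change 0.89, SE 0.22, adjusted p = 0.23 in limma). Of all genes, 6.37% had groups that did not overlap in this comparison.

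Between the knockouts, 2 of 95 listed genes were called, against 0.298% of all genes. At an unadjusted p under 0.05 stood 23, or 24.2%, against 13.6% of all genes, with 19 higher and 4 lower in the ANXA2 knockout. The genes named beside the called ones were chosen after their values were seen. Icam1, an adhesion protein shed by ADAM17, was higher in the ANXA2 knockout, with 18388, 13532 and 16609 normalised reads, against 8305, 8218, 5871 and 6637 in the ANXA5 knockout (log2 fold change 1.16, SE 0.17, adjusted p = 0.0151 in limma). Versican was lower in the ANXA2 knockout, with 3586, 3897 and 3634, against 6519, 5343, 5295 and 5398 in the ANXA5 knockout (log2 fold change -0.60, SE 0.10, adjusted p = 0.0299 in limma). Of 13 inducers of matrix protease genes, 4 (Fos, Junb, Rela and Il6) were above 0 at an unadjusted p under 0.05 and 0 were called. The cytokine gene Il6 had 3674, 1467 and 2862 in the ANXA2 knockout, against 932, 1565, 1009 and 671 in the ANXA5 knockout, overlapping groups with the 2 highest values in ANXA2 knockout libraries 1 and 4 (log2 fold change 1.32, SE 0.31, adjusted p = 0.148 in limma). The medians of the inducers, of the 8 plasmin system genes and of the 23 shed proteins were 0.30, 0.19 and 0.076, and that of all genes 0.0060. All 10 neutrophil and 11 of 12 macrophage markers were below 0 in this comparison, 0 and 2 of them at an unadjusted p under 0.05, as were 6 of 6 erythroid markers, 6 of them at that p. Also below 0 were 7 of 8 endothelial markers, 4 of them at that p, with a median of -0.87, 6 of 6 T and NK cell markers, 1 at that p, 7 of 8 B and plasma cell markers, 1 at that p, and 4 of 5 osteoclast markers, 2 at that p, while 1 osteoclast marker was above 0 at that p. None of these was called. The endothelial sums were 3784 to 5714 in the ANXA2 knockout and 5057 to 7694 in the ANXA5 knockout. The osteoclast sums were 10405 to 13422 and 9721 to 11449 in the same order, overlapping groups. The part of these cells in the differences between the knockouts was not tested.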

How the data were processed

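RNA of 11 libraries was compared. Per the submitters' processing notes the authors used Trim Galore, STAR, HTSeq and DESeq2 with build GRCm39; the sources used here give neither their versions nor whether counting used strand. Per the labels' protocols the RNA was extracted with an RNeasy kit and libraries made with NEBNext modules. Each of the 2 deposited tables gives a signal per gene and library, read counts that the authors divided by a DESeq2 size factor, and WT is in both. The authors also deposited log2 fold changes (knockout over WT), their p-values and a test score per gene, per the file headers; the score has the opposite sign and was not used. Whole reads were recovered for 100% of values within 0.001, and WT reads were the same in both tables for 100% of shared genes. No sample column was left out (0 columns).

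Within each table log2 (value + 1) was tested with limma 3.58.1 (trend) in R 4.3.3 for genes at 10 or more in at least the number of libraries of the smaller group, with Benjamini-Hochberg adjustment and a threshold of 0.05. The knockouts were compared in one such fit over the recovered reads of all 11 libraries, scaled by median-of-ratios factors. edgeR 4.0.16 quasi-likelihood, DESeq2 1.42.0 and limma-voom on the recovered reads were alternatives, with other scaling, pseudocounts, filters, an Xist covariate, a replicate block and each library left out. The scripts were tested on simulated data. Because the deposited values are scaled counts, limma on the log scale was the main test. Exon lengths, positions and overlaps came from GENCODE vM21 on GRCm38, which matched 64 of 64 genes, and coordinates given are of that build.

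The members and gene lists were chosen with earlier results of these data known. Members are named with values if they passed the adjusted threshold or an unadjusted p under 0.05 in any comparison, were among the 3 with the highest WT value of a subfamily, were TIMPs, or lay within 5 Mb of the targeted gene; others are said to be chosen after their values were seen. ANXA2 knockout columns carry other numbers than the sample titles and were matched to their group only. Intervals cover the spread between libraries.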

Additional observations from a re-analysis of the deposited data

Results flagged for a closer look

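On the joint scale, 4 of 60 groups of 4 libraries held a library far from the other 3 (by Dixon's 95% critical value for the gap over the range), and chance gives about 1 group in 20. Mmp8, the neutrophil collagenase, stood at 9773 normalised reads in ANXA5 knockout library 3, against 16669 to 17538 in the other ANXA5 knockout libraries. Adamts14, a procollagen N-proteinase, stood at 808 in ANXA5 knockout library 1, against 622 to 634 in the others of that group. Adam9 stood at 4904 in ANXA5 knockout library 1, against 4323 to 4414 in the others. Adamtsl3 stood at 3438 in WT library 3, against 2123 to 2296 in the other WT libraries.

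The 2 knockouts differed in Adamts4, with a log2 fold change of 1.62 for the ANXA2 knockout over the ANXA5 knockout and a limma adjusted p of 0.0407. All 3 ANXA2 knockout libraries lay above all 4 ANXA5 knockout libraries.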

How the results depend on the processing

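Only the fold changes of named members printed in this report were followed under the alternatives, which gave 665 values. Many of these members were named for an unadjusted p under 0.05, so a reversal was unlikely from the start. Of the 665, 644 kept their direction and their side of the threshold. Another 14 passed it where the main test did not, 7 no longer passed it and 0 reversed. The 7 are the Adamts4 difference between the knockouts, 6 of them without 1 library, given in the report, and 1 with a replicate block, and the 14 came from DESeq2, the deposited table, limma-voom or the Xist covariate. In the ANXA2 knockout against WT, limma called 18 genes and 0 members; DESeq2 called 104 and 1, the Xist covariate gave 284 and 1, and in the authors' deposited table there were 103 and 1, the member being Adamts7 in all 3. In the ANXA5 knockout against WT limma called 5 genes and 0 members, DESeq2 called 282 and 2, and in the authors' deposited table there were 281 and 2, the members being Timp4 and Adamtsl5. Between the knockouts limma called 50 genes and 1 member, DESeq2 397 and 6, and limma-voom and the Xist covariate 2 members each, Adamts4 and Adamts7. The causes of these differences between tests were not tested.

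Leaving out each library in turn gave 8 to 16 genes and 0 members in the ANXA2 knockout against WT, with 8 without ANXA2 knockout library 3, 11 without WT library 2 and 10 without WT library 4. In the ANXA5 knockout against WT it gave 4 to 32 genes and 0 members, with 32 without WT library 4 and 8 without ANXA5 knockout library 3. Between the knockouts it gave 19 to 50 genes and 0 to 1 members; the count was 19 to 27 when any knockout library other than ANXA2 knockout library 4 was left out. WT libraries were not left out of that fit. The replicate block in the ANXA5 comparison called 8 genes and 0 members. To look for pairs, the mean of its group was first subtracted from each gene's log2 values. The correlations thus compare only departures from the group mean, not whole libraries. Same-numbered libraries of the ANXA5 comparison then correlated at 0.0494, -0.0745, -0.252 and 0.0670, and no library correlated best with its own number. These values gave no sign that the numbers pair the samples. A replicate block on the numbers in the column names, added after seeing the data, called 22 genes and 0 members in the ANXA2 knockout against WT, and 32 genes and 0 members between the knockouts, where Adamts4 had a log2 fold change of 1.63 and a limma adjusted p of 0.112. With group means subtracted in the same way, ANXA2 knockout libraries 1, 3 and 4 correlated at 0.310, 0.0835 and 0.320 with WT, 2 of 3 best with their own number. With the ANXA5 knockout they correlated at 0.0904, -0.0386 and -0.0991, 1 of 3 best with their own number. The labels tie no number to a shared animal or day, so whether these numbers pair the samples is not known. With 3 or 4 libraries a group, the difference of Timp2 in the ANXA2 knockout (95% interval -0.20 to 0.83) cannot be given a direction.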
